A study of Mus musculus with 5 samples.

Results

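The genes described here are Lamtor1 and its partners in the machinery that holds the growth-controlling kinase complex mTORC1 on the lysosome. They are the Ragulator subunits Lamtor1, Lamtor2, Lamtor3, Lamtor4 and Lamtor5, the GTPases Rraga, Rragc and Rheb, the kinase Mtor and its partner Rptor. Lamtor1 was chosen on its own difference between knockout and wild-type arrays, which was among the largest falls in these data, so its values are given as a description with no test. The other 9 genes were chosen by their place in the same complexes, with earlier results of these data known. All 10 had a row of their own in the table, 12 rows of the 21789 that name a single gene and 10 genes of 19938. A row is the summary of one set of probes for a transcript, and Lamtor1 and Lamtor3 have 2 rows each.

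RNA came from mandibular condyle cartilage, which covers the lower jaw's side of the jaw joint, of Ddr1 knockout mice (DDR-1-KO, mice 2 and 5) and of wild-type mice (mice 3, 4 and 6), all of strain 129/Sv. Ddr1 encodes a receptor tyrosine kinase that is activated by collagen. The labels name 1 mouse per array and give neither age nor sex, nor which part of Ddr1 was removed and in which cells. Where a gene's values repeat exactly between mice, its p does not reflect mouse-to-mouse spread. Array names carry one of 2 dates: mice 2 and 3 share the first, and mice 4, 5 and 6 share the second. Values are log2 signals from RMA, a method that normalises arrays and summarises probes. Each difference is the knockout mean minus the wild-type mean in these log2 units, and levels of different rows are not set against each other because probes differ in brightness.

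Ragulator is a scaffold on the lysosomal surface. Lamtor1 is anchored in the membrane by lipids on its N-terminal end and wraps around the other subunits, which pair as Lamtor2 with Lamtor3 and Lamtor4 with Lamtor5. When amino acids are plentiful, Ragulator and the Rag GTPases bring mTORC1 to the lysosome, where Rheb, the GTPase controlled by growth factors, activates its kinase Mtor. In growth cartilage, mTORC1 signalling is known to support the growth and matrix production of chondrocytes.

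The arrays did not lie equally close to each other. Across the 21789 rows, which are not independent replicates, Pearson's r was 0.802 to 0.826 between knockout 2 and the wild-type arrays, 0.902 to 0.928 between knockout 5 and wild type, 0.790 between the knockout arrays and 0.983 to 0.992 between wild-type arrays. The SD over the row values was 0.814 (knockout 2) and 0.926 (knockout 5), against 1.01 to 1.04 on the wild-type arrays. Ddr1 was at 5.96 and 5.80 in knockout 2 and 5, against 6.02 on each wild-type array (difference -0.14, limma's adjusted p = 0.382). The sources used here do not place its probes relative to the removed part, so this does not check the labels. Cartilage markers were measured in all arrays, with 11 of 12 rows lower in knockout, against 50.02% of all rows. The median difference of the 12 was -0.29, against -0.13 over all rows whose mean lay above the median row. Of the cartilage rows, Sox9, the transcription factor of chondrocytes, and Comp, a matrix protein, passed the test. The test is a limma p under 0.05 after adjustment over all rows, which 3.63% of all rows passed. Prg4, lubricin of the joint surface, had 0.14 (adjusted p = 0.698), and Acan, the aggrecan core protein, read 4.81 (knockout 2) and 5.92 (knockout 5), against 5.40 on each wild-type array. The mean over the 12 rows came to 5.68 (knockout 2) and 6.04 (knockout 5), against 6.11 to 6.15 on the wild-type arrays, and the median difference was -0.48 within the first array date and -0.044 within the second. Of the 35 rows of bone, muscle, blood, fat, endothelial and nerve markers, Cidec, a lipid droplet protein of fat, and the neurofilament Nefl passed, both lower, a share of 5.71%. Other rows of their lists lay the other way without passing, Adipoq at 0.43 and Lep at 0.50 for fat and Nefm at 0.48 for nerve. Blood and marrow rows were higher in 5 of 6, with a median of 0.23 and none past the test. Skeletal muscle rows were lower in 6 of 8, with a median of -0.059 and none past the test. The largest of these falls were Tnnc2 at -1.11 (adjusted p = 0.152) and Acta1 at -0.84 (adjusted p = 0.0800).

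Lamtor1 was lower on both knockout arrays than on every wild-type array, in both of its rows. In the brighter row (10555586) it read 3.80 (knockout 2) and 4.30 (knockout 5), against 6.25, 6.06 and 5.84 in wild type 3, 4 and 6. The means were 4.05 ± 0.35 (SD, n = 2) in knockout and 6.05 ± 0.21 (SD, n = 3) in wild type, a difference of -2.00 or a knockout to wild-type ratio of 0.250. The gap from the higher knockout value to the lowest wild-type value was 1.54, against 0.50 between the knockout mice and 0.41 over the wild-type mice. It was the fourth largest fall of all rows tested, and this rank is part of what brought Lamtor1 forward. Within the first array date the difference was -2.45 and within the second -1.65. The levels ordered the mice as knockout 2, knockout 5, wild type 6, wild type 4 and wild type 3 from low to high. In bulk tissue, fewer cells of a type and less RNA per cell cannot be told apart. Of the cartilage markers 11 of 12 rows were lower and 2 passed the test, as given above. Of the muscle markers 6 of 8 rows were lower and none passed. The part of either tissue in the Lamtor1 difference was not tested.

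The dimmer Lamtor1 row (10460765) differed less and put the knockout mice in the other order. It read 4.99 (knockout 2) and 3.99 (knockout 5), against 5.45, 5.27 and 5.03 in wild type 3, 4 and 6, a difference of -0.76 and a ratio of 0.592. Knockout 2 lay 0.038 under the lowest wild-type value, so the larger part of the difference came from knockout 5. The difference was -0.45 within the first array date and -1.16 within the second, -1.26 without knockout 2 and -0.26 without knockout 5.

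The rows kept a nearly fixed distance in wild type and not in knockout. The brighter row minus the dimmer was -1.19 in knockout 2 and 0.31 in knockout 5, against 0.81, 0.79 and 0.81 in wild type 3, 4 and 6. The platform's annotation pairs both rows with Lamtor1, and 10 of the 10 rows nearest in number to the brighter one belong to genes of chromosome 7, where Lamtor1 lies, with Anapc15 before it and Numa1 after it. For the dimmer row 10 of the 10 nearest belong to genes of chromosome 19. The sources used here give no probe positions, and which transcripts each row measures was not tested.

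**Figure D1:**
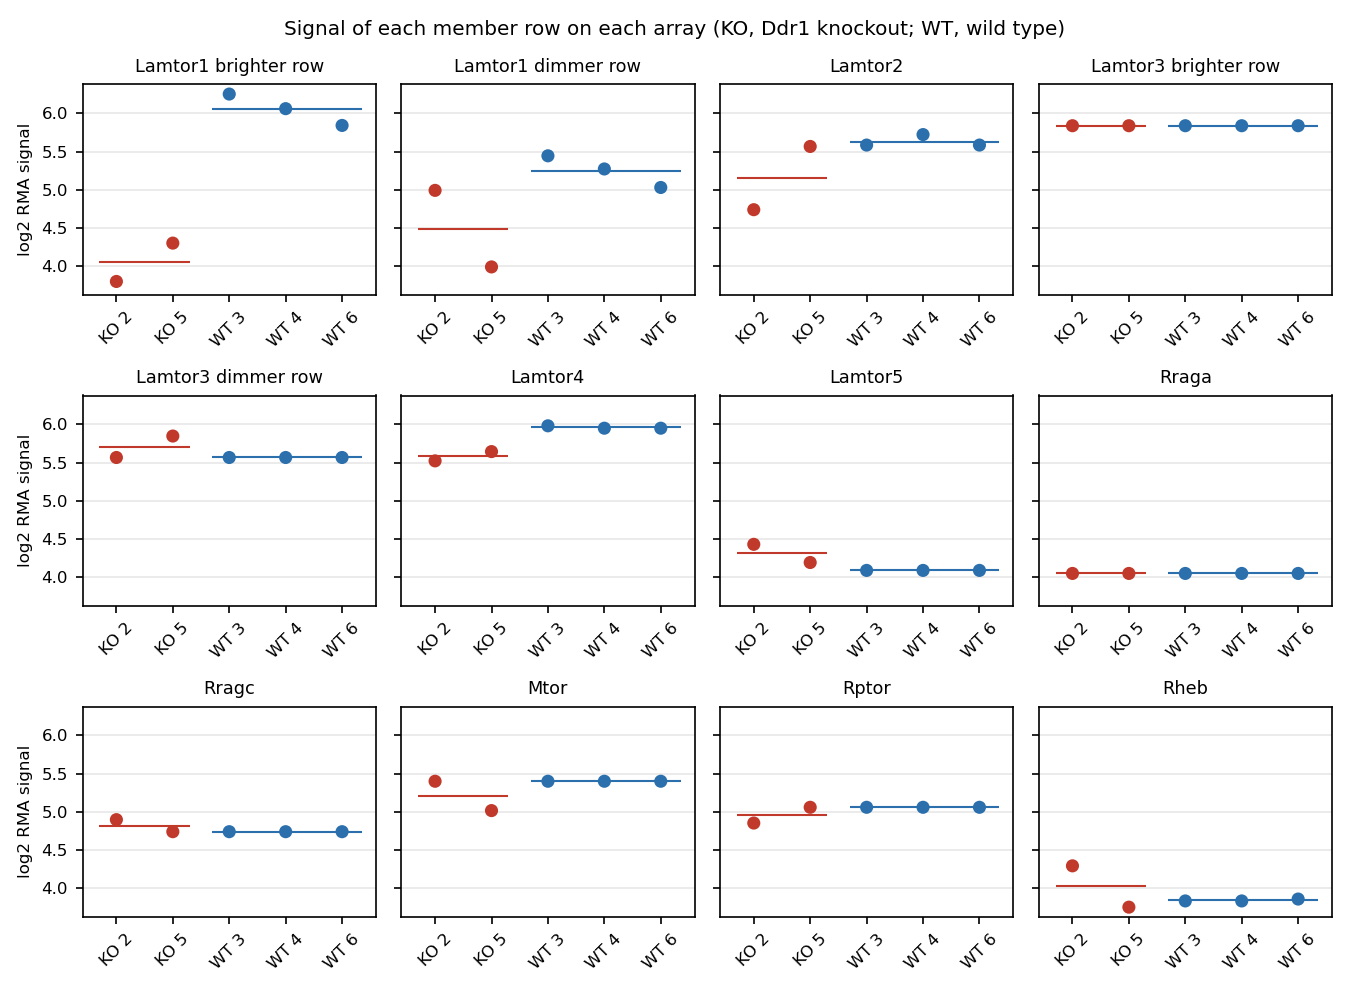
Log2 RMA signal (vertical axis) of each of the 12 rows on each array, with knockout (KO) in red left of wild type (WT) in blue and a line at each group's mean. In the brighter Lamtor1 row the knockout arrays sit at 3.80 and 4.30, below wild type at 5.84 to 6.25, while Rraga and the brighter Lamtor3 row have a single value on all 5 arrays; heights are not comparable between panels.

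The promoters of Lamtor1 and Lamtor4 are shown because these genes had the widest gaps between the groups among the members, 1.54 and 0.31. Each run gives the 250 bases before and 50 after the gene's start from RefSeq (GRCm38.p6), with capitals on CACGTG. This is the core of the element bound by TFEB, a transcription factor of lysosomal genes that mTORC1 holds in the cytoplasm by phosphorylation. The Lamtor1 window is chr7:101905587-101905886 and the Lamtor4 window chr5:138255232-138255531, both on the plus strand.
Lamtor1: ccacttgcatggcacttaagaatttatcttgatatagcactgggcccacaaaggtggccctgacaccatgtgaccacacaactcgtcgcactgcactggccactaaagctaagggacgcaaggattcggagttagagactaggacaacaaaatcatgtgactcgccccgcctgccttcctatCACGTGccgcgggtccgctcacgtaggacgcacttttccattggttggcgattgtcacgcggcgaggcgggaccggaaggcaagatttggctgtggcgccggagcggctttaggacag
Lamtor4: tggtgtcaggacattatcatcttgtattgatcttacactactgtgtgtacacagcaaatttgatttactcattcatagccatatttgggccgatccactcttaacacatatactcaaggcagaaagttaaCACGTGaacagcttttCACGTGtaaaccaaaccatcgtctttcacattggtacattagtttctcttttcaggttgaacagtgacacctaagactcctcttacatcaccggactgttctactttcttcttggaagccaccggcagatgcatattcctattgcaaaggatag

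The motif began 68 bases before the start of Lamtor1, and 120 and 104 bases before that of Lamtor4. It reads the same on both strands, so each match counts once. Windows were at hand for 9 of the 10 genes, all but Lamtor3, and 4 of the 9 held it, against 2349 of 32851 windows of the same length, 7.15%. The 32851 windows were not matched to the members, and the shares were not tested against each other. The other 2 member windows with the motif were those of Rragc, 112 bases before the start, and Rheb, 96 bases before it, shown with 10 bases on each side for comparison. Their stretches are chr4:123917311-123917336 on the plus strand and chr5:24842442-24842467 on the minus strand.
Rragc: tgattccgggCACGTGatagtaccac
Rheb: cgcgcgcggtCACGTGggtgtgttgt

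Rragc and Rheb, whose values are given below, did not pass the test between the groups. A match is a description of the sequence and says nothing of binding in this tissue.

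Among the partners of Lamtor1 in Ragulator, Lamtor4 was lower, Lamtor2 was lower mainly in knockout 2, and Lamtor3 and Lamtor5 were level or higher. Lamtor4, which pairs with Lamtor5, read 5.52 (knockout 2) and 5.64 (knockout 5), against 5.98, 5.95 and 5.95 in wild type 3, 4 and 6. It fell by 0.38 (difference -0.38, SE 0.046, limma's adjusted p = 0.0485), with groups that did not overlap and differences of -0.46 and -0.31 within the first and second array dates. It was the 1 row of the 10 of the other members to pass the test, where 3.63% of all rows passed, 2.07% lower and 1.55% higher. Lamtor4 is among the 10895 rows whose mean lay above the median row. Tested alone, 401 of those rows passed lower and 57 higher. One call in 10 rows is no measure of whether these genes differ from others. The call is close to the threshold of 0.05 and rests on wild-type values of which 2 are identical and equal to a number that fills 144 cells of the table. It was kept under 7 of the alternatives tried and lost under 10. Taking the brightest row of each gene, the mean of its rows or only rows above the median row kept it. These settings left the difference at -0.38 and changed only the rows around it. Leaving out knockout 2 or 5 also kept it, where the lone knockout array took its spread from wild type. It was lost, among others, with the array date as a block (adjusted p = 0.109) and after cyclic loess (-0.27, adjusted p = 0.113). It was also lost without wild type 3, 4 or 6 (adjusted p = 0.216, 0.248 and 0.254).

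Lamtor2, which forms a pair with Lamtor3 inside the scaffold, read 4.74 (knockout 2) and 5.57 (knockout 5), against 5.59, 5.72 and 5.59 in wild type. The groups did not overlap, but knockout 5 lay 0.018 under the lowest wild-type value. The difference of -0.48 did not pass (95% interval -1.30 to 0.34, adjusted p = 0.400), and it was -0.84 within the first array date and -0.087 within the second. The value of knockout 2 is the commonest value of the whole table. Without knockout 5 the difference was -0.89 (adjusted p = 0.0138), where the lone knockout array was taken to vary like the wild-type arrays.

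Lamtor3, also known as a scaffold that holds the kinases MEK1 and ERK1 together, had equal values in one row and a higher value in 1 knockout mouse in the other. Its brighter row (10566405) was at 5.84 on all 5 arrays, and its difference was -0.015 to 0.15 under the 4 scalings tried. Its dimmer row (10496397) read 5.57 (knockout 2) and 5.85 (knockout 5), against 5.57 on every wild-type array, a difference of 0.14 (95% interval -0.14 to 0.42, adjusted p = 0.400). The nearest rows in number to the dimmer one belong to genes of chromosome 3, where Lamtor3 lies (10 of 10). Those nearest to the brighter one belong to genes of chromosome 7 (10 of 10), between the odorant receptors Olfr668 and Olfr670.

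Lamtor5, the partner of Lamtor4, read 4.43 (knockout 2) and 4.20 (knockout 5), against 4.09 on each wild-type array. Both knockout values were above wild type, and the difference of 0.22 did not pass (95% interval -0.013 to 0.46, adjusted p = 0.306). It was 0.34 within the first array date and 0.10 within the second. In the deposited values Lamtor4 and Lamtor5, which form one pair in the complex, lay on opposite sides of wild type in both knockout mice. That contrast was not tested. Lamtor4 is among the rows whose mean lay above the median row, and Lamtor5 is not. Tested alone, that brighter part had 401 rows lower and 57 higher past the test, against 452 and 338 over all rows. Whether the contrast goes beyond this lean of bright rows was not tested. Under the 4 scalings tried the difference of Lamtor4 was -0.39 to -0.25, and that of Lamtor5 was 0.046 to 0.21. With the lone knockout array taken to vary like wild type, where Lamtor5 had no spread, its adjusted p was 6.6e-06 without knockout 2 and 6e-07 without knockout 5.

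The Rag GTPases, which bind Ragulator as a dimer and recruit mTORC1, departed from wild type in at most 1 knockout mouse. Rraga was listed at 4.05 on all 5 arrays, so no spread between mice can be read from it, and its difference was -0.29 to -0.015 under the same scalings. Identical values do not show equal expression, and their cause was not tested. Rragc read 4.90 (knockout 2) and 4.74 (knockout 5), against 4.74 on each wild-type array, a difference of 0.079 (95% interval -0.081 to 0.24, adjusted p = 0.400). Those 4 identical Rragc values are the number that knockout 2 has for Lamtor2.

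Mtor and Rptor, the kinase of mTORC1 and the subunit that recruits its substrates, each departed from wild type in 1 knockout mouse, and not in the same one. Mtor read 5.40 (knockout 2) and 5.02 (knockout 5), against 5.40 on each wild-type array (difference -0.19, 95% interval -0.57 to 0.18, adjusted p = 0.400). Rptor read 4.85 (knockout 2) and 5.06 (knockout 5), against 5.06 on each wild-type array (difference -0.10, 95% interval -0.31 to 0.10, adjusted p = 0.400). Neither gene's groups were separate.

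Rheb, which activates mTORC1 at the lysosome, went apart between the knockout mice. It read 4.30 (knockout 2) and 3.76 (knockout 5), against 3.84, 3.84 and 3.86 in wild type, so knockout 2 was above and knockout 5 below every wild-type mouse. The difference of 0.18 did not pass (95% interval -0.35 to 0.71, adjusted p = 0.533), and its sign turned to -0.0089 with arrays centred and scaled, -0.013 after cyclic loess and -0.057 after quantile normalisation.

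**Figure D2:**
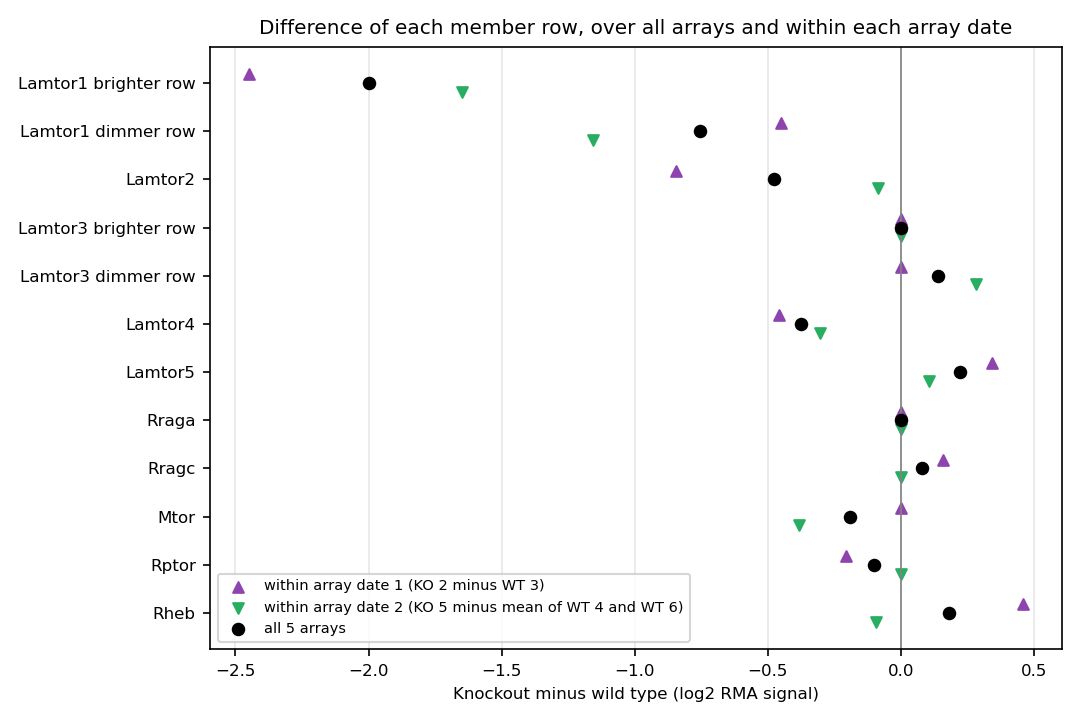
Knockout minus wild type in log2 RMA signal (horizontal axis) for each of the 12 rows, over all 5 arrays (black), within the first array date (purple) and within the second (green). The brighter Lamtor1 row lies at -2.00, -2.45 and -1.65, and Rheb has 0.46 in the first date and -0.094 in the second.

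Over the 10 rows of the 9 genes other than Lamtor1, 4 were lower, 4 were higher and 2, Rraga and the brighter row of Lamtor3, were at 0, with a median difference of 0, against -0.00023 over all rows tested. The groups did not overlap in 5 of the 12 rows, both of Lamtor1 and 3 of the other 10, where 31.3% of all rows had no overlap. Wild type had 1 value on all its arrays in 7 of the 12 rows, against 38.6% of all rows, and all 5 values were identical in 2 of the 12, against 6.23%. In 2 rows, Rragc and Rptor, knockout 2 alone departed from a value shared by the other 4 arrays, and in 2 others, Mtor and the dimmer row of Lamtor3, knockout 5 alone did. Lamtor1 and Lamtor2 differed between the wild-type mice as well, over 0.41 in either row of Lamtor1 and over 0.14 in Lamtor2.

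The wider pathway was read from 7 lists of genes around the members, 134 genes on 155 rows. The lists too were chosen with earlier results of these data known. Of these rows 7 fell and 2 rose, 5.81% of them, against 3.63% of all rows. For the lists, a row that fell or rose is one that passed the test. By sign alone, 103 were lower (66.5%) and 40 higher (25.8%), against 50.02% and 43.75% of all rows. Their median difference was -0.12, against -0.00023 over all rows and -0.13 over all rows whose mean lay above the median row. Of the 155 rows, 89 lay in that brighter part. Whether their lean goes beyond that of bright rows was not tested. The groups did not overlap in 44 of the 155 rows, 28.4%, against 31.3% of all rows. All 9 calls were lost with the array date as a block (adjusted p from 0.054 to 0.106) and after cyclic loess (adjusted p from 0.0701 to 0.31). In 8 of the 9, wild type held 2 distinct values, and in Eif4e only 1, so the standard errors below do not measure the spread between mice.

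Among the other subunits and helpers of the mTOR complexes, 2 of 9 genes passed the test and 7 did not. Of all rows 3.63% passed, 2.07% lower. The 2 were both lower and are proteins known to hold mTORC1 back. Both calls were lost with the array date as a block and after cyclic loess. Whether inhibitors of mTORC1 differ as a group was not tested. By sign alone, 6 of the 9 rows were lower and 2 higher. The largest difference was that of Telo2, -0.98, which did not pass (limma's adjusted p = 0.249). The median of the list was -0.20, with -0.30 within the first array date and -0.058 within the second. Deptor, an inhibitor that binds Mtor, was at 5.26 and 5.13 in knockout 2 and 5, against 5.86 on every wild-type array (difference -0.66, SE 0.047, adjusted p = 0.0248). Akt1s1, the inhibitory subunit also called PRAS40, was at 6.65 and 6.67 in knockout, against 6.98, 6.98 and 7.08 in wild type 3, 4 and 6 (-0.35, SE 0.043, adjusted p = 0.0494). Its difference shrank to -0.21 after cyclic loess and to -0.022 with arrays centred and scaled. The difference of Deptor was -0.68 to -0.57 under the 4 scalings tried.

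Of the genes that carry amino acid signals to the Rag GTPases, limma passed none of 25 rows of 23 genes, with 3 at an unadjusted p under 0.05 (12.0%, against 18.0% of all rows). The median was -0.15 over all arrays, -0.22 within the first array date and -0.0035 within the second. The lowest p was that of Sec13, a GATOR2 and nuclear pore subunit, at 5.83 and 6.03 in knockout, against 6.39 on each wild-type array (-0.46, adjusted p = 0.0712). The next was one of the 2 rows of Castor2, of the arginine sensor family, with -0.23 (adjusted p = 0.119). Its other row read 6.68 (knockout 2) and 4.59 (knockout 5), against 4.87 to 4.88 on the wild-type arrays, so the rows of Castor2 disagreed.

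Of the growth factor and energy inputs to Rheb, 1 of 23 rows fell and 22 did not pass, where 3.63% of all rows passed. The median was -0.16 over all arrays, -0.052 within the first array date and -0.061 within the second. The row that fell was Rhebl1, a close relative of Rheb that can also activate mTORC1, at 4.03 and 3.88 in knockout 2 and 5, against 4.79, 4.73 and 4.73 in wild type (-0.79, SE 0.058, adjusted p = 0.0252). Its difference was -1.02 to -0.80 under the 4 scalings tried. Rheb itself, as given above, lay on both sides of wild type.

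Of the substrates and outputs of mTORC1, 2 of 33 rows fell, 1 rose and 30 did not pass, where 3.63% of all rows passed. The median was 0 over all arrays, -0.27 within the first array date and 0.033 within the second. Of the 33 rows 8 are of Rps6, so these medians lean on 1 gene. All 8 Rps6 rows had a higher knockout mean, by 0.078 to 0.55, and none passed. By sign alone, 15 of the 33 rows were lower and 16 higher. Eif4ebp2, a repressor of cap-dependent translation that mTORC1 switches off, was at 5.21 and 5.17 in knockout, against 5.79, 5.82 and 5.79 in wild type (-0.61, SE 0.024, adjusted p = 0.0149). Srebf2, the transcription factor of cholesterol synthesis, was at 5.95 and 5.83 in knockout, against 6.30, 6.32 and 6.30 in wild type (-0.42, SE 0.043, adjusted p = 0.0376), and at -0.23 with arrays centred and scaled. Eif4e, the cap-binding protein that Eif4ebp2 holds back, rose in 1 of its 3 rows, at 4.89 and 4.95 in knockout against 4.59 on each wild-type array (0.33, SE 0.027, adjusted p = 0.0291). Its other rows had -0.48 and -0.11 and did not pass, so the rows of Eif4e disagreed and the gene has no settled direction here.

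Of all rows 3.63% passed, and of the 27 rows of the vacuolar ATPase, the proton pump that Ragulator touches on the lysosome, 1 fell. This was Atp6v1b1, a subunit known from kidney and inner ear, at 5.16 and 5.11 in knockout, against 5.38, 5.39 and 5.38 in wild type (-0.25, SE 0.024, adjusted p = 0.0352). Over the whole list the median was also -0.25, with 19 of 27 rows lower (70.4%) and 7 higher. The median was -0.13 within the first array date and -0.0048 within the second. The largest difference of the list was a higher one, that of Atp6v1d at 0.84, which did not pass (limma's adjusted p = 0.0939). Of 28 rows of lysosomal membrane proteins and hydrolases 1 fell, with a median of -0.060 over all arrays, -0.080 within the first array date and 0 within the second. It was Neu1, the lysosomal sialidase, at 5.59 and 5.64 in knockout, against 6.23, 6.16 and 6.16 in wild type (-0.56, SE 0.035, adjusted p = 0.0226). In either list, 1 call is about what the share over all rows would give.

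Of the partners of Ragulator in lysosome positioning (the BORC complex) and in MEK and ERK signalling, 1 of 10 rows rose and 9 did not pass. Of all rows 3.63% passed. The median of the list was -0.093 over all arrays, -0.14 within the first array date and 0 within the second. The rise was in 1 of the 2 rows of Bloc1s1, a subunit shared by BORC and BLOC-1, at 6.08 and 6.15 in knockout, against 5.62, 5.51 and 5.62 in wild type (0.54, SE 0.052, adjusted p = 0.0351). Its other row had -0.0080, so the rows of Bloc1s1 disagreed.

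**Figure D3:**
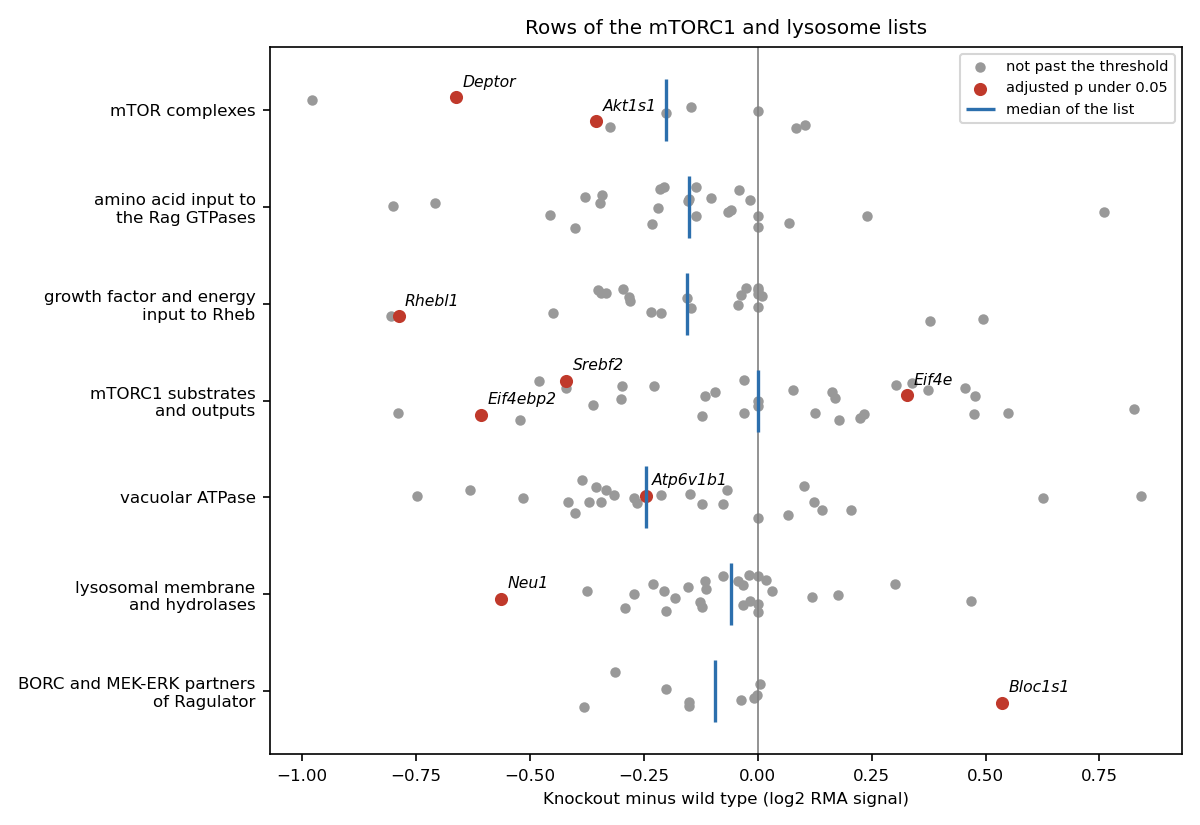
Knockout minus wild type in log2 RMA signal (horizontal axis) for each of the 155 rows of the 7 lists, with rows past limma's adjusted p of 0.05 in red and named, the others in grey and the list's median as a blue line; vertical scatter within a list has no meaning. The 7 falls run from -0.79 for Rhebl1 to -0.25 for Atp6v1b1, and the rises are Eif4e (0.33) and Bloc1s1 (0.54).

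The genes next to Lamtor1 on chromosome 7 had smaller differences where they were measured, though this was not tested against Lamtor1. Tomt overlaps the start of Lamtor1 in the GRCm38.p6 gene table and was not analysed here, since no row names it alone. Anapc15, a regulator of the anaphase-promoting complex on the far side of Tomt, was at 4.91 and 5.10 in knockout, against 5.37, 5.61 and 5.34 in wild type in its brighter row (-0.44, adjusted p = 0.190). Its dimmer row went the other way (0.18, adjusted p = 0.544). Lrrc51, on the other side of Lamtor1, read 5.66 (knockout 2) and 5.17 (knockout 5), against 5.17, 5.13 and 5.17 in wild type (0.26, adjusted p = 0.400). Numa1, a protein of the spindle poles, was at 5.59 and 5.59 in knockout, against 5.77, 5.59 and 5.48 in wild type (-0.024, adjusted p = 0.918).

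The rows most like the brighter Lamtor1 row over the 5 arrays were those of Gipc3, Pfn3, Lhpp, Snrnp35 and Actb. Likeness was the root mean square difference after each row was centred on its own wild-type mean, which was 0.210, 0.262, 0.274, 0.280 and 0.285 for these rows in that order. The dimmer Lamtor1 row was far less like it, at 0.918. Gipc3, an adaptor protein needed for hearing, was at 5.17 and 5.11 in knockout, against 7.23, 6.98 and 6.71 in wild type 3, 4 and 6. Pfn3, a testis profilin, was at 5.35 and 5.60 in knockout, against 7.26, 7.08 and 6.89 in wild type. Both, like Lhpp and both Lamtor1 rows, were highest in wild type 3 and lowest among wild type in mouse 6. Actb, the cytoplasmic actin often used as a reference gene, was at 4.51 and 5.48 in knockout, against 6.75, 6.56 and 6.56 in wild type, a difference of -1.64. These rows were picked for their likeness to a row chosen on this contrast, so their differences are a description.

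**Figure D4:**
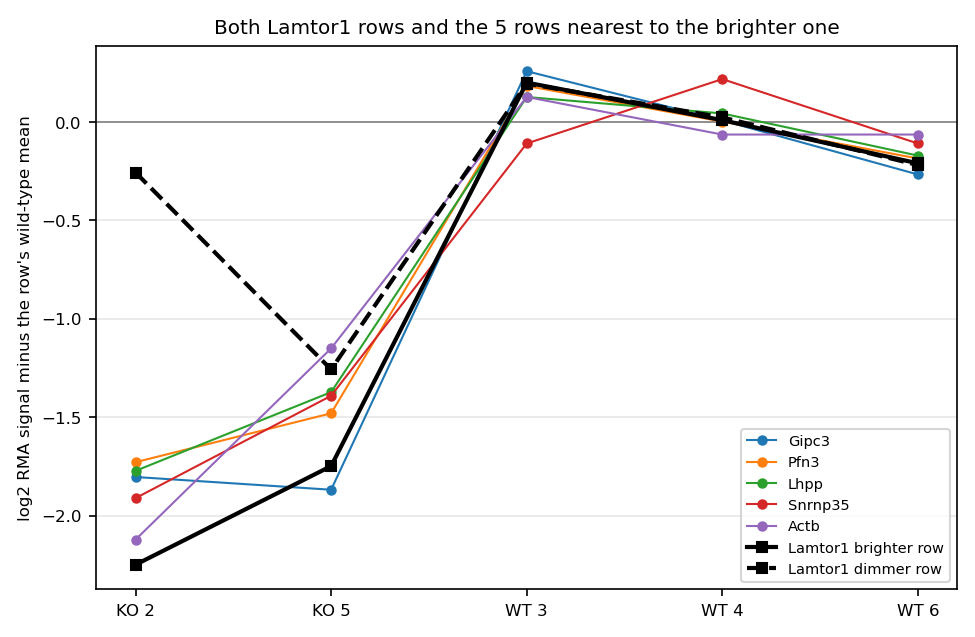
Log2 RMA signal minus each row's wild-type mean (vertical axis) on the 5 arrays for both Lamtor1 rows (black squares, brighter row solid and dimmer row dashed) and the 5 rows nearest to the brighter one (coloured circles). The black lines nearly coincide in wild type and part in both knockout arrays, more so in knockout 2, where the dimmer row lies at -0.26; in knockout 5 it lies at -1.26.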

How the data were processed

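Total RNA of 5 condylar cartilage samples was hybridised to Affymetrix mouse gene 1.0 ST arrays, per the labels. The deposited values are log2 signals that the authors made with Affymetrix Expression Console and RMA, per the submitters' processing notes; the sources used here give neither software versions nor a genome build. The number of arrays limits the precision. Rows were named from the platform annotation, with symbols updated by gene identifier (21698 of 21789 single-symbol rows matched). Knockout minus wild type was fitted with limma 3.58.1 in R 4.3.3 (lmFit, eBayes, all 5 arrays, two-sided) on the single-symbol rows, with Benjamini-Hochberg adjustment over all of them and a threshold of 0.05. Rows with one value on all 5 arrays have no variance, which limma offset from 0. The fit was tested on simulated data. How it treats rows with 1 value on all wild-type arrays, 38.6% of all rows, was not tested. Intervals are 95% intervals from this fit. Named genes were every member row, up to 6 rows per list past the threshold or else the 2 of lowest p, the 5 rows most like the brighter Lamtor1 row, and the 3 genes on each side of Lamtor1. The members and lists were chosen with earlier results of these data known. List genes without a single-symbol row (16 of 150) were not analysed here. Alternatives covered the array date, the rows tested, a filter on dim rows, normalisation, the variance model and each array left out.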

Additional observations from a re-analysis of the deposited data

How the results depend on the processing

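Over all rows 790 passed (338 higher and 452 lower). The count was 0 with the array date as a block, array weights, arrays centred and scaled, quantile normalisation or cyclic loess in limma, with 4149, 922, 4124, 4448 and 3994 rows at an unadjusted p under 0.05, and it was 458 over the rows whose mean lay above the median row, of which 57 were higher. Leaving out 1 array gave 0 to 10814, with 0 without wild type 3, 4 or 6 (with 2657, 2497 and 2628 passing before adjustment), 8097 without knockout 2 and 10814 without knockout 5. A lone knockout array takes its spread from wild type, where many rows have none. The 1 call among the other members became 0 under those 5 settings, with all rows of the table and with robust variance, and ranged from 0 to 6 with 1 array left out. The 9 pathway calls became 0 under the same 5 settings and 5 with arrays centred on the median, and ranged from 0 to 77 with 1 array left out (53 without knockout 2, 77 without knockout 5). The brighter Lamtor1 row stayed lower in knockout under each setting tried. Its difference of -2.00 was -2.45 within the first array date, -1.65 within the second and -1.38 with both Lamtor1 rows averaged, and moved by less than the spread between replicates (0.26) under the 4 scalings, from -2.21 to -1.95, and with each array left out. Rheb turned from 0.18 to -0.0089 with arrays centred and scaled, -0.013 with cyclic loess and -0.057 with quantile normalisation, and ran from -0.089 to 0.45 with 1 array left out; the cause was not tested. No paired analysis was possible because the groups share no replicate number, and the fit matched on array date is the block given above. Detection calls were not used, and whether dim rows carry signal was not tested.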

Other observations

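The value 4.74144, which knockout 2 has for Lamtor2 and which knockout 5 and all 3 wild-type mice have for Rragc, is the commonest number of the deposited table. It fills 1509 of 177780 cells in 712 rows, and in 54 rows all 5 arrays hold it. The table has 91599 distinct values, of which the median occurs once and 201 occur in over 50 cells. Other member values recur as well: 5.58594, of Lamtor2 in wild type 3 and 6, fills 509 cells, 5.56781, of Lamtor2 in knockout 5, fills 352, 5.40053, of Mtor, fills 263, 4.05218, of Rraga, fills 245, 5.83873, of Lamtor3, fills 160, and 5.95006, of Lamtor4 in wild type 4 and 6, fills 144. The values of Lamtor1 fill at most 3 cells each. The cause of the recurrence was not tested.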
